A study of Homo sapiens with 30 samples.

Results

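Active AKT and ERG were each expressed alone in RWPE1, an immortalized line of normal human prostate epithelium with basal character, and the RNA of the resulting lines was set side by side to compare their single-oncogene programs. The comparison holds the 12416 genes with at least 1 FPKM (fragments scaled to transcript length and to the mapped total, so a level per length) in either line, out of 26255 genes in the table. RWPE1-ERG cells were retrovirally transduced with pQCXIH-ERG (Uniprot isoform 1) and the empty pBabe-Puro vector. RWPE1-mAKT cells carried the empty pQCXIH vector and pBabe-Puro-Myr-AKT, which encodes AKT with a myristoylation signal. RWPE1-Vector cells, with both empty vectors, and RWPE1-ERG+mAKT cells, with both constructs, serve as points of reference. All lines were grown in keratinocyte serum-free medium with EGF and bovine pituitary extract and were kept under puromycin and hygromycin, so the empty-vector cells shared the selection. Each line is a drug-selected population, and whether the libraries of a line came from separate cultures is not given in the sources used here.

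ERG is an ETS transcription factor that prostate epithelium normally keeps silent and that gene fusions switch on in prostate cancer. AKT is the kinase at the centre of the PI3K pathway, and the myristoyl group holds it at the membrane, where it stays active without upstream signal. In stratified and glandular epithelia, basal cells carry keratins 5 and 14, cells leaving the basal layer switch on keratins such as 4 and 13 and the cornified envelope genes, and luminal cells carry keratins 8, 18 and 19. An epithelial-mesenchymal transition brings vimentin, fibronectin and N-cadherin.

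Each line was sequenced as 3 libraries, but the deposited value of a line is pooled over them, so no difference below carries a replicate error and no test between lines could be computed from these values. A ratio is log2 of RWPE1-mAKT over RWPE1-ERG after adding 0.1 FPKM, so positive values are higher with mAKT, and fold values are on the same scale. A gene is counted as higher in a line at 2-fold or more. In bulk RNA, a change in the share of cells of a kind and a change in RNA per cell cannot be told apart. The same line's level differed by at most 7.04% between the pairs in which the table lists it.

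The transgenes matched the labels. ERG was at 0.264 FPKM in RWPE1-Vector, 358 in RWPE1-ERG, 0.435 in RWPE1-mAKT and 328 in RWPE1-ERG+mAKT. AKT1, whose reads come from the resident gene and any matching transgene sequence, was at 58.7, 64.2, 156 and 281 FPKM in the same order. Both lines kept the epithelial identity of RWPE1. The markers of other cell types were near the floor, with 2 of 18 endothelial genes (EGFL7 and ENG), 1 of 14 immune genes (CD68), 3 of 14 fibroblast and muscle genes and 1 of 10 neuroendocrine genes (ENO2) reaching 1 FPKM in either line. The fibroblast and muscle genes summed to 8.09 FPKM in RWPE1-ERG and 7.78 in RWPE1-mAKT. PECAM1, CDH5 and VWF of the endothelial genes and PTPRC of the immune genes did not reach 1 FPKM in either line.

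The 4 markers chosen for the contrast separated the lines in opposite directions. VIM (vimentin, the intermediate filament of mesenchymal cells) was at 737 FPKM in RWPE1-Vector, 1056 in RWPE1-ERG, 366 in RWPE1-mAKT and 288 in RWPE1-ERG+mAKT. FN1 (fibronectin, an extracellular matrix glycoprotein) was at 83.7, 228, 53.4 and 23.8 FPKM in the same order. Both were highest with ERG alone and lowest in the line with both constructs, and their log2 ratios of mAKT over ERG were −1.53 and −2.09. KRT5 (the type II keratin of basal cells) was at 3126 FPKM in RWPE1-Vector, 1170 in RWPE1-ERG, 3642 in RWPE1-mAKT and 3519 in RWPE1-ERG+mAKT, a log2 ratio of 1.64. KRT13 (a type I keratin of the suprabasal layers of mucosa) was at 4.10, 9.76, 111 and 148 FPKM, a log2 ratio of 3.49. KRT5 was thus low in RWPE1-ERG against 3 lines at a similar level, whereas KRT13 was high in both lines that carried mAKT.

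The promoters of KRT5, VIM and FN1, read from the GRCh37 reference as the 250 bases upstream of each gene start, are shown with that of SPRR1B, the leading gene of the mAKT side, to set the sequence beside the levels. KRT5 lies at chr12:52914179-52914428 on the minus strand, VIM at chr10:17269990-17270239 (plus), FN1 at chr2:216300792-216301041 (minus) and SPRR1B at chr1:153003429-153003678 (plus). Each runs 5′ to 3′ on the strand of its gene. Capitals mark matches, on either strand, to TGANTCA (AP-1), CCGGAAGT (ETS), GGAAGTGA (an ETS core joined to the first bases of an AP-1 site), GGAATG (TEAD), TGTTTAC (forkhead) and AACCGGTT (grainyhead).
KRT5: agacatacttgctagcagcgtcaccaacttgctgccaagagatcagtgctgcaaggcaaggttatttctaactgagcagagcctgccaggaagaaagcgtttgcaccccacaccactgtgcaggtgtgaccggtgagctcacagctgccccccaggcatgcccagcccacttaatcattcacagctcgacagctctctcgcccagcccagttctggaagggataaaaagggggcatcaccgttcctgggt
VIM: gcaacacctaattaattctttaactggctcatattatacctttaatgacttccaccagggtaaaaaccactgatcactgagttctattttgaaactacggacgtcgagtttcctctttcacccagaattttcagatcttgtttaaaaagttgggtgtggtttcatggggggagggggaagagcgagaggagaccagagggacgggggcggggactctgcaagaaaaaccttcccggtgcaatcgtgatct
FN1: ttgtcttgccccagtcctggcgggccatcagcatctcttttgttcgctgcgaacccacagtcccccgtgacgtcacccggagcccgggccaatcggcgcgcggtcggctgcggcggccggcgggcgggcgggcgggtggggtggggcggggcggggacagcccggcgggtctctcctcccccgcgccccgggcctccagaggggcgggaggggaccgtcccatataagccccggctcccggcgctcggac
SPRR1B: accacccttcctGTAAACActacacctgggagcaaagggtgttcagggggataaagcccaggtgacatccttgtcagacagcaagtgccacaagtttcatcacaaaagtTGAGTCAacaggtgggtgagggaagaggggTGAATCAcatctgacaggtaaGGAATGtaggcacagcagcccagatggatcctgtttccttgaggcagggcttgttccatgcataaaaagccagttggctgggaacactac
The SPRR1B promoter held an AP-1 match of each form TGAGTCA and TGAATCA, a TEAD match and a forkhead match. The windows of KRT5, VIM and FN1 held none of these letters.

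Of the 12416 genes, 292 (2.35%) were at least 2-fold higher in RWPE1-mAKT and 616 (4.96%) were at least 2-fold higher in RWPE1-ERG, so 908 (7.31%) passed in either direction, while 85.3% lay within 1.5-fold. The median log2 ratio was 0.04, and the middle 90% of genes ran from −0.99 to 0.60. The balance of directions depends on the scaling, since with both lines scaled to the same sum of FPKM 532 genes were higher in RWPE1-mAKT and 416 in RWPE1-ERG. The genes at the limit show where the line was drawn. SRGAP3 just passed it at 0.737 FPKM in RWPE1-ERG and 1.58 in RWPE1-mAKT, and BCL2L11 just missed it at 2.08 and 4.25 FPKM. On the other side ANPEP passed at 12.1 and 6.00 FPKM. Protein-coding genes made up 195 of the 292 and 333 of the 616. Short RNA genes, which FPKM measures poorly because it divides by length, gave another 87 and 188. Of the 75 genes listed at 0 in RWPE1-ERG, 73 were short RNA genes, as were 48 of the 49 listed at 0 in RWPE1-mAKT.

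**Figure D1:**
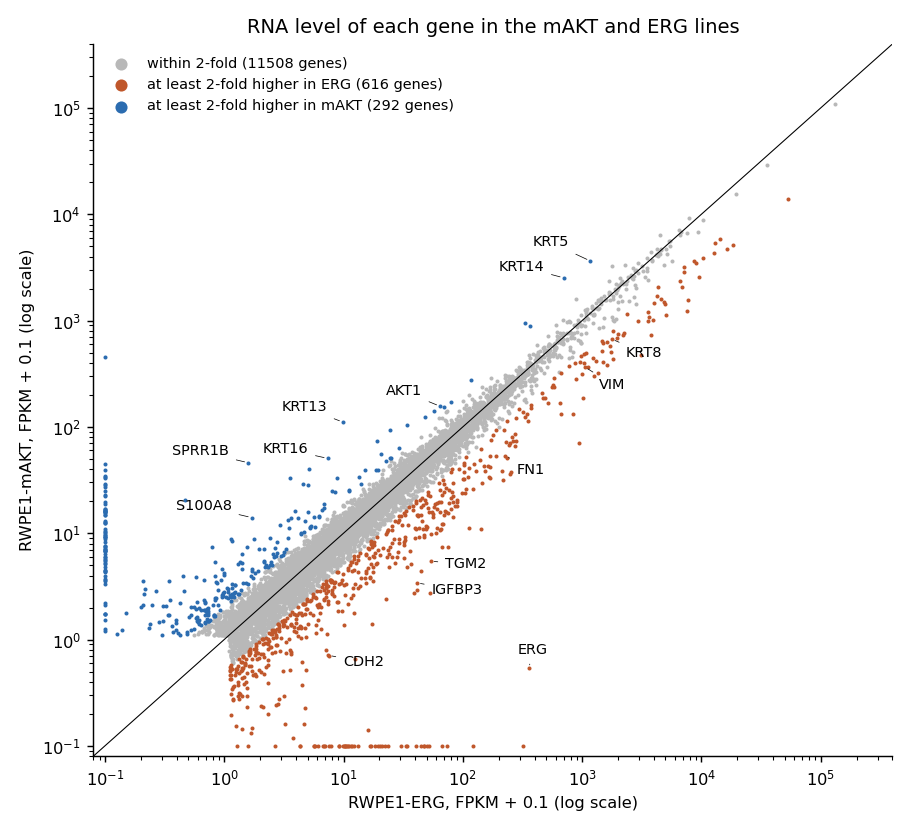
Level of each of 12416 genes in RWPE1-ERG (horizontal) and RWPE1-mAKT (vertical), as FPKM plus 0.1 on log axes, pooled over 3 libraries a line. The 292 genes at least 2-fold higher in RWPE1-mAKT (blue) include KRT5, KRT13, KRT14 and SPRR1B, the 616 higher in RWPE1-ERG (orange) include VIM, FN1, KRT8 and ERG itself, and the columns of points at the edges are genes listed at 0 in a line.

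Short RNA genes moved the sum of all FPKM, which was 1246090 in RWPE1-ERG and 971508 in RWPE1-mAKT. Short RNA genes took 43.8% and 29.3% of that sum, while protein-coding genes summed to 668865 and 661655 FPKM, nearly alike. Scaling both lines to the same sum therefore adds 0.36 to every log2 ratio, and this turned the sign of 17 of 184 named genes and of 6 of 24 list medians, all within 0.36 of 0. Histone genes of the clusters added little to these sums but stood out by ratio. Of 58 tested, 54 were higher in RWPE1-ERG (4.96% of all genes were) and 0 in RWPE1-mAKT, with a median log2 ratio of −2.01. Their median level was 17.6 FPKM in RWPE1-Vector, 50.0 in RWPE1-ERG, 11.3 in RWPE1-mAKT and 22.8 in RWPE1-ERG+mAKT, so RWPE1-ERG stood above the other 3 lines. HIST1H1C, a linker histone, was at 88.6, 248, 69.9 and 68.6 FPKM in that order, and HIST1H4H, a core histone, at 73.4, 169, 53.2 and 71.6. The libraries were made from poly-A selected RNA, and the mRNAs of replication-dependent histones lack a poly-A tail, as do most short RNAs. Cell cycle genes did not move with them, since 0 of 32 passed 2-fold in either direction and their median log2 ratio was 0.13. What part library selection had in these levels was not tested.

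Many genes of squamous differentiation were higher with mAKT. Of the 23 cornified envelope and epidermal differentiation genes tested, 16 were higher in RWPE1-mAKT (2.35% of all genes were) and 0 in RWPE1-ERG. Of the 16, 10 were below 1 FPKM in RWPE1-ERG and entered only through the line where they were high, so they had to differ. Among the 12 genes at 1 FPKM or more in both lines, 6 were higher in RWPE1-mAKT and 0 in RWPE1-ERG, with a median log2 ratio of 0.78. The median over all 23 was 1.93, or 0.98 with a pseudocount of 1 FPKM, against 0.04 for all genes. The other 17 of the 40 genes in the list, LOR and FLG among them, did not reach 1 FPKM in either line. SPRR1B, a small proline-rich protein that is crosslinked into the envelope, was at 6.47 FPKM in RWPE1-Vector, 1.48 in RWPE1-ERG, 45.9 in RWPE1-mAKT and 74.8 in RWPE1-ERG+mAKT. Its neighbour SPRR1A was at 1.00, 0.367, 20.3 and 33.9 FPKM, the largest ratio of the list at 5.45. Both were lowest with ERG alone and highest with both constructs. S100A8, a calcium-binding protein of stressed keratinocytes and neutrophils, was at 3.64, 1.60, 13.9 and 137 FPKM, so ERG+mAKT cells held far more of it than mAKT cells. CALML3, a calmodulin-like protein of epithelia, was at 44.6, 24.2, 92.7 and 103 FPKM, and CSTA, the protease inhibitor cystatin A, at 67.1, 48.1, 125 and 127. SPRR2A, SPRR2E, SPRR3 and A2ML1 had log2 ratios of 3.17 to 3.60, but none was above 2 FPKM in either line. IVL (involucrin) missed 2-fold at a log2 ratio of 0.96, and CDSN (corneodesmosin) was at −0.63.

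Suprabasal and stress keratins went the same way with an exception. Of 8 tested, 6 were higher in RWPE1-mAKT and 1 in RWPE1-ERG (2.35% and 4.96% of all genes were), with a median log2 ratio of 2.15. KRT4 and KRT6C entered only through RWPE1-mAKT, and the 6 keratins at 1 FPKM or more in both lines had a median of 1.35. KRT16, induced in activated epidermis, was at 28.1 FPKM in RWPE1-Vector, 7.25 in RWPE1-ERG, 50.5 in RWPE1-mAKT and 87.4 in RWPE1-ERG+mAKT. KRT6A, its usual partner, was at 1075, 331, 946 and 1050 FPKM, so only RWPE1-ERG departed from the other lines. KRT4, the mucosal partner of KRT13, was at 0.266, 0.107, 3.48 and 2.45 FPKM. KRT80 was the exception at 10.8, 32.8, 8.48 and 12.6 FPKM, a log2 ratio of −1.94. Of the 5 epidermal kallikreins tested, which are serine proteases that help shed squames, 4 were higher in RWPE1-mAKT, led by KLK5 (0.348 FPKM with ERG and 3.87 with mAKT) and KLK8 (1.21 and 5.01). Of these 4, 3 were below 1 FPKM in RWPE1-ERG and entered only through RWPE1-mAKT. Reads of KRT6A, KRT6B and KRT6C, of KRT14 and KRT16 and of the SPRR2 genes can be shared between near-identical copies, so how a family's total divides among them is uncertain.

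**Figure D2:**
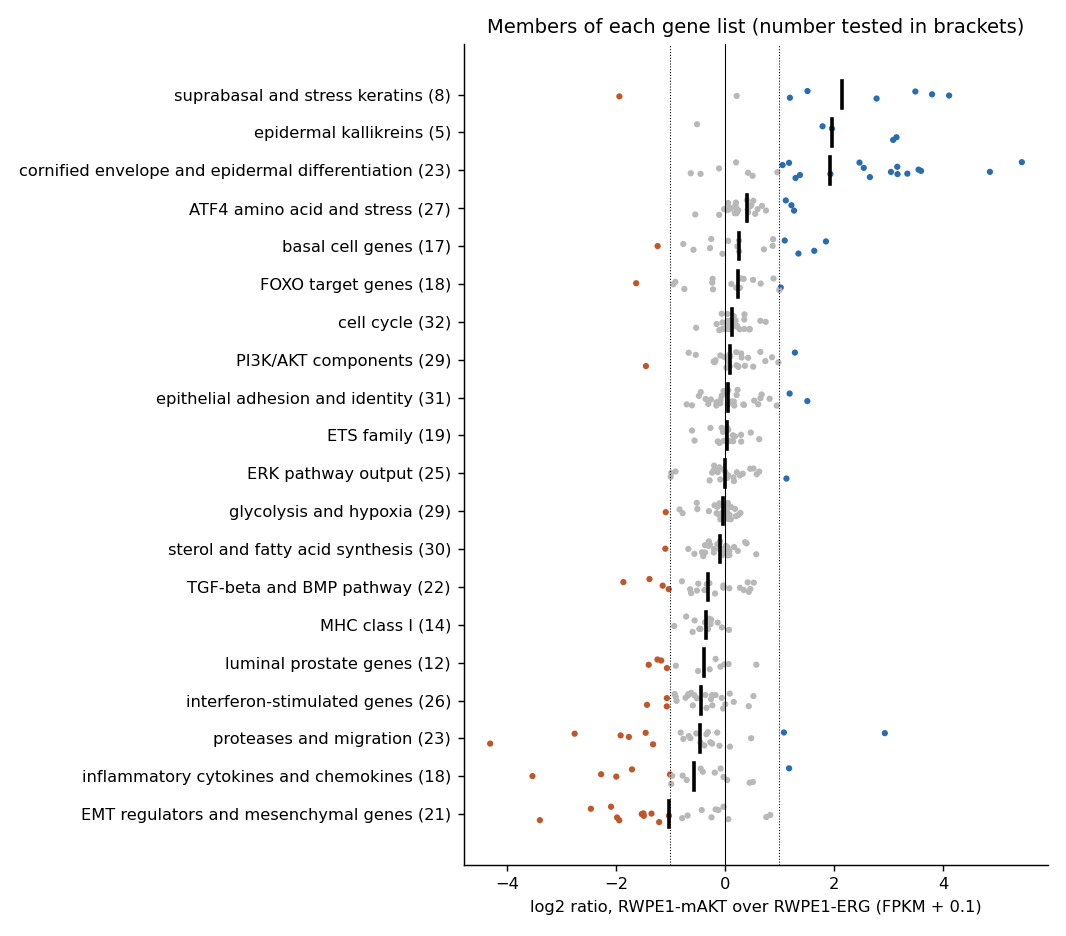
Log2 ratio of RWPE1-mAKT over RWPE1-ERG for each tested member (points) of the 20 gene lists with at least 5 members tested, with the list median as a black bar and dotted lines at 2-fold (ERG itself, at −9.39, is left out of the ETS family row). Suprabasal keratins, epidermal kallikreins and cornified envelope genes have medians of 1.93 to 2.15, mesenchymal genes have a median of −1.03, and most other lists lie near 0.

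KRT5 and KRT14 were higher with mAKT and most luminal keratins higher with ERG. KRT14, the partner of KRT5, was at 2936 FPKM in RWPE1-Vector, 700 in RWPE1-ERG, 2527 in RWPE1-mAKT and 1185 in RWPE1-ERG+mAKT. COL17A1, a hemidesmosomal collagen, was at 210, 79.4, 170 and 76.8 FPKM, and DST (dystonin), which ties keratin to the hemidesmosome, at 22.2, 13.3, 33.9 and 33.3. These with KRT5 were the 4 of 17 basal genes that were higher in RWPE1-mAKT (2.35% of all genes were). LAMB3, a chain of laminin-332, was the 1 of 17 higher in RWPE1-ERG, near the 4.96% of all genes, at 222 against 94.2 FPKM. The keratin KRT15 leaned the other way at 80.3 FPKM with ERG and 53.8 with mAKT, within 2-fold. The median of the basal list was 0.26. Of 12 luminal genes tested, 0 were higher in RWPE1-mAKT and 4 in RWPE1-ERG (4.96% of all genes were), with a median log2 ratio of −0.39. KRT8, the luminal keratin, was at 622 FPKM in RWPE1-Vector, 1769 in RWPE1-ERG, 671 in RWPE1-mAKT and 921 in RWPE1-ERG+mAKT. KRT19 was at 367, 956, 405 and 654 FPKM and KRT7 at 2463, 4356, 2082 and 2124, both highest with ERG alone. KRT18, the partner of KRT8, was at 1843 FPKM with ERG and 987 with mAKT, just short of 2-fold. Defining genes of prostate luminal cells were at or near 0, with KLK2 and KLK3 listed at 0 in both lines and TMPRSS2 and HOXB13 under 1 FPKM. In FPKM rather than ratio, KRT5 had the largest excess of mAKT over ERG of any protein-coding gene, 2472 FPKM. The excess was 1827 for KRT14 and 1494 for KRT17. These are differences from the ERG line, since in RWPE1-Vector KRT14 was at 2936 and KRT17 at 3105 FPKM, against 2527 and 3262 in RWPE1-mAKT. On the ERG side the largest difference was that of MT2A, −3964 FPKM, and those of KRT7 and KRT8 were −2273 and −1099 FPKM.

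Mesenchymal genes were the counterpart on the ERG side. Of 21 tested, 11 were higher in RWPE1-ERG and 0 in RWPE1-mAKT (4.96% and 2.35% of all genes were), with a median log2 ratio of −1.03. Among the 18 at 1 FPKM or more in both lines, 9 were higher in RWPE1-ERG, with a median of −0.91. CDH2 (N-cadherin) was at 3.04 FPKM in RWPE1-Vector, 7.38 in RWPE1-ERG, 0.610 in RWPE1-mAKT and 0.666 in RWPE1-ERG+mAKT. SPARC, a collagen-binding matrix protein, was at 31.6, 67.5, 12.2 and 15.4 FPKM, and COL5A1, a fibrillar collagen chain, at 1.79, 5.98, 1.44 and 2.56. For CDH2 and SPARC, as for VIM, both lines with mAKT were below the vector line as well as below ERG. FSTL1, a secreted follistatin-like protein, was at 10.9, 42.6, 11.0 and 17.7 FPKM, so for it the mAKT line stood at the vector level. The transcription factors known to drive the transition were within 2-fold or low. SNAI2 was at 55.9 FPKM with ERG and 54.9 with mAKT, TWIST1 at 5.89 and 4.95 and TWIST2 at 20.1 and 12.5, and ZEB1, ZEB2 and SNAI1 did not reach 1 FPKM in either line. Epithelial adhesion genes hardly differed, with 2 of 31 higher in RWPE1-mAKT, 0 in RWPE1-ERG and a median log2 ratio of 0.06. The 2 were GRHL1 (1.06 FPKM with ERG and 3.20 with mAKT) and GRHL3 (0.511 and 1.29), grainyhead factors of epithelial differentiation.

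Migration, matrix and TGF-beta genes added to the ERG side. Of 23 protease and migration genes tested, 6 were higher in RWPE1-ERG and 2 in RWPE1-mAKT (4.96% and 2.35% of all genes were), with a median log2 ratio of −0.45. CYR61, a matricellular protein and YAP/TEAD target, was at 65.4 FPKM in RWPE1-Vector, 255 in RWPE1-ERG, 37.7 in RWPE1-mAKT and 51.5 in RWPE1-ERG+mAKT. CTGF, its relative, was at 10.2, 24.1, 6.33 and 5.54 FPKM. Both were highest with ERG alone. ANKRD1, another YAP/TEAD target, was at 3.10 FPKM in RWPE1-ERG and below 0.4 FPKM in the other 3 lines, so it entered only through RWPE1-ERG. TIMP3, a matrix metalloproteinase inhibitor, went the other way at 1.05 FPKM with ERG and 8.65 with mAKT. Of 22 TGF-beta and BMP genes tested, 4 were higher in RWPE1-ERG (4.96% of all genes were), and they were THBS1 (491 FPKM with ERG and 188 with mAKT), LTBP3, SMURF2 and NOG. Of these 4, 1 was below 1 FPKM in RWPE1-mAKT and entered only through RWPE1-ERG. THBS1 encodes thrombospondin-1, which can activate latent TGF-beta. The ligand TGFB1 and the receptor TGFBR2 were within 2-fold at log2 ratios of −0.49 and 0.08.

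Inflammatory genes leaned to ERG by fewer members. Of 18 cytokine and chemokine genes tested, 5 were higher in RWPE1-ERG and 1 in RWPE1-mAKT (4.96% and 2.35% of all genes were), with a median log2 ratio of −0.57. Of the 5, 2 were below 1 FPKM in RWPE1-mAKT, IL24 among them, and entered only through RWPE1-ERG. Among the 15 at 1 FPKM or more in both lines, 3 were higher in RWPE1-ERG and 1 in RWPE1-mAKT, with a median of −0.41. IL1B was at 46.6 FPKM in RWPE1-Vector, 168 in RWPE1-ERG, 42.0 in RWPE1-mAKT and 44.6 in RWPE1-ERG+mAKT, so only the ERG line stood out. IL24, of the IL-10 family, was at 0.220, 2.21, 0.0996 and 6.97 FPKM, and IL32 at 0.862, 8.92, 1.77 and 4.82. Their order among the lines was thus unlike that of IL1B. IL1RN, the antagonist of the IL-1 receptor, was the 1 higher with mAKT, at 2.61 FPKM with ERG and 6.02 with mAKT. Of 26 interferon-stimulated genes, 3 were higher in RWPE1-ERG (RSAD2, MX1 and IFI6) and 21 had a log2 ratio below 0, against 4.96% and 44.2% of all genes, with a median of −0.44. Of these 3, 1 was below 1 FPKM in RWPE1-mAKT and entered only through RWPE1-ERG. Of 14 MHC class I genes, 13 lay below 0 but 0 passed 2-fold, and HLA-B was nearest at 109 FPKM with ERG and 57.4 with mAKT. Scaled to the same sum, these medians come near 0, at −0.08 for the interferon genes and 0.02 for the class I genes, as do those of the luminal genes (−0.03) and of the TGF-beta and BMP genes (0.05, from −0.31).

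The signalling lists that name the pathways themselves differed little. Over all genes, 2.35% were higher in RWPE1-mAKT, 4.96% in RWPE1-ERG and 7.31% either way. A single member past 2-fold in a list of 25 to 30 genes is near those shares. Of 25 genes that report ERK pathway output, 1 was higher in RWPE1-mAKT and 0 in RWPE1-ERG, with a median log2 ratio of 0.00. The 1 was EREG, an EGF receptor ligand, at 5.15 FPKM with ERG and 11.4 with mAKT, while FOSL1, an AP-1 subunit, was at 200 and 100 FPKM, just within 2-fold, and the phosphatase gene DUSP4 was at 11.8 and 17.7. Of 29 PI3K/AKT components, AKT1 was the 1 higher with mAKT, and the median log2 ratio was 0.10. Of 18 FOXO target genes, which active AKT is known to restrain, 16 were within 2-fold and the others were CCND2 and SESN3. CCND2 (a D-type cyclin) was at 26.3 FPKM in RWPE1-Vector, 99.3 in RWPE1-ERG and 32.0 in RWPE1-mAKT. SESN3 was at 1.70, 0.714 and 1.55 FPKM in that order. For both, the mAKT line was near the vector level and the ERG line departed. Sterol and fatty acid synthesis genes had 1 of 30 past 2-fold, the desaturase FADS2 at 179 FPKM with ERG and 84.0 with mAKT, and glycolysis and hypoxia genes had 1 of 29, ENO2. Of 27 genes of the ATF4 amino acid and stress response, 24 had a log2 ratio above 0 (55.8% of all genes did), with a median of 0.40. Of the 27, 3 were higher in RWPE1-mAKT (2.35% of all genes were). They were DDIT4, an inhibitor of mTORC1 signalling (368 FPKM with ERG and 885 with mAKT), CHAC1 and the cystine transporter SLC7A11. In the ETS family of 19 genes tested, none but ERG itself passed 2-fold.

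Beyond the lists, the leading genes were taken as the 15 largest ratios in each direction with at least 10 FPKM in the higher line and more than 0.5 in the lower. On each side 10 of the 15 were protein coding. The mAKT side held SPRR1B, KRT13, S100A8, KRT16, CALML3 and GJB2 (connexin 26, at 8.75 FPKM with ERG and 33.0 with mAKT), all known from stratified epithelium, with PTGES (prostaglandin E synthase, 4.51 and 28.9), AQP3 (a water and glycerol channel of basal keratinocytes, 4.97 and 28.5), RAPGEFL1 and AKR1C1. The noncoding H19 was at 18.9 FPKM with ERG and 72.9 with mAKT. AKR1C1, an aldo-keto reductase whose reads are shared with its close relatives, was at 15.4 FPKM in RWPE1-Vector, 3.54 in RWPE1-ERG, 13.9 in RWPE1-mAKT and 18.4 in RWPE1-ERG+mAKT, so again it was the ERG line that differed. The ERG side held MARCHF4 (a membrane ubiquitin ligase, 12.4 FPKM with ERG and 0.561 with mAKT), KRTAP2-3, TRIML2, IGFBP3, IGFL1, CST6, TGM2, PLCB4, NNMT and RBP7. IGFBP3, which binds insulin-like growth factors, was at 4.44 FPKM in RWPE1-Vector, 41.1 in RWPE1-ERG, 3.31 in RWPE1-mAKT and 13.7 in RWPE1-ERG+mAKT. TGM2, tissue transglutaminase, was at 8.73, 53.5, 5.36 and 4.18 FPKM, and NNMT, nicotinamide N-methyltransferase, at 12.7, 67.1, 7.31 and 33.3. IGFL1, an IGF-like secreted protein, was at 1.97, 44.5, 4.27 and 50.4 FPKM. In the line with both constructs IGFL1 kept the ERG level, NNMT and IGFBP3 lay between and TGM2 was at the mAKT level.

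**Figure D3:**
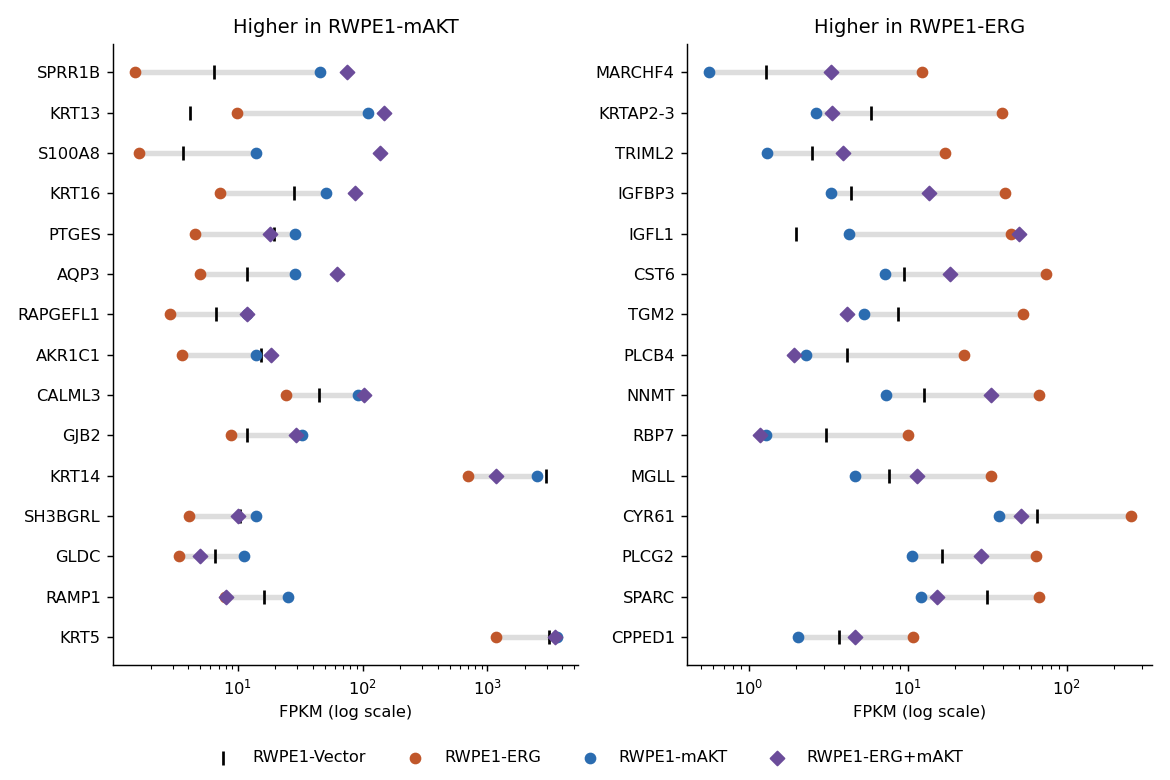
FPKM (log axis) in RWPE1-Vector (bar), RWPE1-ERG (orange), RWPE1-mAKT (blue) and RWPE1-ERG+mAKT (purple diamond) for the 15 protein-coding genes with the largest ratio in each direction, 1 pooled value a line. On the right the vector line sits near the mAKT point for most genes, as for CST6 at 9.51 against 7.27 FPKM, and on the left the purple diamond passes the mAKT point for S100A8, AQP3 and KRT16.

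The vector line shows which of the single-oncogene lines departed. Between RWPE1-mAKT and RWPE1-Vector 2.79% of genes differed 2-fold either way, and between RWPE1-ERG and RWPE1-Vector 6.8%. Of the 616 genes higher in RWPE1-ERG, 461 were at least 2-fold above RWPE1-Vector in the ERG line (4.99% of all genes tested against that line were) and 72 were at least 2-fold below it in the mAKT line (1.26% of all were), and their median log2 ratios over vector were 1.40 for ERG and −0.28 for mAKT. Of the 292 genes higher in RWPE1-mAKT, 113 were at least 2-fold above vector in the mAKT line (1.52% of all) and 133 were at least 2-fold below it in the ERG line (1.81% of all), and the medians were 0.66 for mAKT and −0.92 for ERG. The ERG side of the contrast thus lay mostly above vector in the ERG line, whereas the mAKT side was made of both genes high with mAKT, such as KRT13 and SPRR1A, and genes low with ERG, such as KRT14, KRT6A and AKR1C1. Both comparisons share the vector line and also share a line with the contrast that chose the genes, so these counts describe the genes and support nothing further.

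RWPE1-ERG+mAKT cells, which the contrast did not use, were nearer to RWPE1-mAKT than to RWPE1-ERG on the log2 scale for 187 of the 292 genes higher with mAKT (64.0%, 95% Wilson interval 58.4 to 69.3) and for 379 of the 616 higher with ERG (61.5%, 57.6 to 65.3). Among protein-coding genes alone the shares were 73.3% and 68.8%. At the 4-fold limit they were 56.9% (48.1 to 65.3), an interval that includes 50%, and 60.9% (53.9 to 67.6). RWPE1-Vector was nearer to RWPE1-mAKT for 534 of the 616 genes higher with ERG (86.7%, 83.8 to 89.1) and for 165 of the 292 higher with mAKT (56.5%, 50.8 to 62.1). The last share was 47.3% with a pseudocount of 1 FPKM and 35.8% at 4-fold. Of the 73 short RNA genes listed at 0 in RWPE1-ERG, 37 were also at 0 in both reference lines. The double line went beyond the mAKT level for 36.6% of the genes higher with mAKT, S100A8, AQP3, KRT16 and SPRR1B among them, and beyond it in the downward direction for 15.3% of the genes higher with ERG, with FN1 and VIM among them. Intervals cover counting error only, and genes are not independent of each other.

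**Figure D4:**
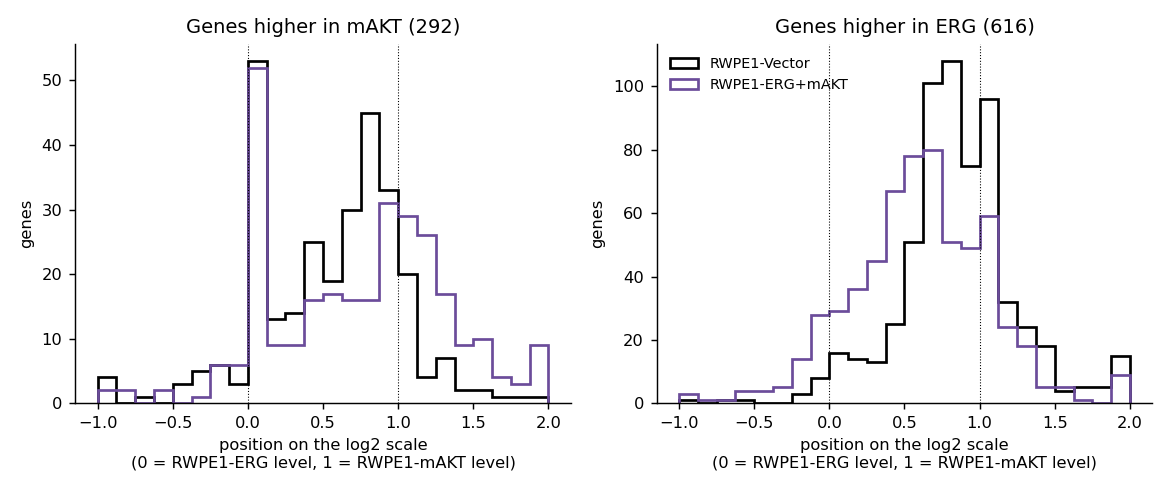
Position of RWPE1-Vector (black) and RWPE1-ERG+mAKT (purple) between the 2 single-oncogene lines for the 292 genes higher with mAKT (left) and the 616 higher with ERG (right), where 0 is the RWPE1-ERG level and 1 the RWPE1-mAKT level on the log2 scale, and values past −1 or 2 are drawn at the edge. In the right panel the vector line has a median position of 0.82 and the double line one of 0.60, and in the left panel the double line has a median of 0.82.

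Open chromatin was measured in 1 ATAC-seq library a line, so it gives a second readout that the choice of genes did not use. The lists held 63354 peaks in RWPE1-ERG and 57999 in RWPE1-mAKT, of which 17270 and 11985 overlapped no peak of the other list. A gene start from GENCODE was available for 11914 of the genes. A peak lay within 1 kb of the start in RWPE1-mAKT for 71.9% of genes higher with mAKT (95% Wilson interval 66.2 to 77.0), 63.8% of genes higher with ERG (59.7 to 67.7) and 92.9% of genes within 2-fold (92.4 to 93.3). In RWPE1-ERG the shares were 65.4%, 62.7% and 93.4%. Genes of both classes thus had a peak at the start less often than the rest. Over the same genes the median level in the higher line was 4.47 FPKM (mAKT class), 12.1 (ERG class) and 12.4 (the rest). Among protein-coding genes these medians were 2.96, 5.68 and 13.1 FPKM, and the peak shares in RWPE1-mAKT were 82.1%, 75.1% and 94.4%. What part level had in the lower shares was not tested. The ERG class minus the mAKT class in RWPE1-mAKT was −8.09 points (−14.6 to −1.14), but the interval included 0 within 10 kb (−8.66 to 0.106) and for protein-coding genes (−13.8 to 0.437).

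Where both lines had a peak at the start, its height did not separate the classes. The median log2 ratio of fold enrichment, mAKT over ERG, was −0.26 for genes higher with mAKT, −0.25 for genes higher with ERG and −0.26 for the rest. Peaks were lower in RWPE1-mAKT at most starts, since 7.41% of genes within 2-fold had a ratio above 0, with quartiles of −0.40 and −0.15. KRT5 (3.59-fold enrichment with ERG and 2.77 with mAKT) and KRT13 (3.74 and 3.19) lay between those quartiles, at −0.38 and −0.23. FN1 was at 6.11 and 3.98 and IGFBP3 at 6.36 and 4.19, lower in the line with less RNA, while VIM was at 3.97 and 4.20. Presence of a peak differed at a few leading genes. The starts of SPRR1A, SPRR1B and KRT4 had a peak in RWPE1-mAKT and none in RWPE1-ERG, and those of TGM2, RBP7, SAA1 and SH2D2A, higher with ERG, had a peak in RWPE1-ERG and none in RWPE1-mAKT. Others ran against the RNA. The starts of KRTAP2-3, ANKRD1 and CCND2, higher with ERG, had a peak in RWPE1-mAKT alone, and that of TIMP3, higher with mAKT, had a peak in RWPE1-ERG alone. SPARC and IGFL1 had none in either line. The RWPE1-mAKT library held 35688481 fragments per the file header, and the depth of the RWPE1-ERG library is unknown, so a peak listed in a single line may reflect depth.

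Peaks of a single line within 10 kb of the start were more common near both classes than near other genes. Peaks of RWPE1-mAKT alone lay near 24.6% of genes higher with mAKT (19.8 to 30.2), 17.5% of genes higher with ERG (14.6 to 20.9) and 11.5% of the rest (10.9 to 12.1), and the ERG class minus the mAKT class was −7.07 percentage points (95% Newcombe interval −13.4 to −1.16). Peaks of RWPE1-ERG alone lay near 21.5%, 19.2% and 13.5%, with a difference of −2.37 points (−8.57 to 3.37), which was 2.36 points (−5.36 to 9.61) among protein-coding genes. The mAKT peaks therefore leaned to the genes higher with mAKT, and no lean of the ERG peaks to the genes higher with ERG was detectable. Of the 7 peaks of RWPE1-mAKT alone and 4 of RWPE1-ERG alone within 10 kb of the starts of leading genes, the 2 most enriched of each line are shown as examples of sites listed in a single line, on the plus strand of GRCh37 and cut to their central 300 bases where wider, with the same motifs in capitals.
S100A8 peak, mAKT alone: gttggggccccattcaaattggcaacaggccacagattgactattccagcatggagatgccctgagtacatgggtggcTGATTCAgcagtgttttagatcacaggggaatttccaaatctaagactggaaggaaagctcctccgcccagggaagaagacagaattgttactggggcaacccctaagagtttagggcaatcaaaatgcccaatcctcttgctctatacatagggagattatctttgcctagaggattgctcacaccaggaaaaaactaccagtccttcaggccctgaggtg
SPRR1B peak, mAKT alone: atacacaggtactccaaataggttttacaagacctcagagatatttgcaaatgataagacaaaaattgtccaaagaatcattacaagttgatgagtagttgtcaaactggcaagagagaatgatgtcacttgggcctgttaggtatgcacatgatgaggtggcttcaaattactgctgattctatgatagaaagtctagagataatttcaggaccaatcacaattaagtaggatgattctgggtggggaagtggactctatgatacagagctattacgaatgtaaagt
CST6 downstream peak, ERG alone: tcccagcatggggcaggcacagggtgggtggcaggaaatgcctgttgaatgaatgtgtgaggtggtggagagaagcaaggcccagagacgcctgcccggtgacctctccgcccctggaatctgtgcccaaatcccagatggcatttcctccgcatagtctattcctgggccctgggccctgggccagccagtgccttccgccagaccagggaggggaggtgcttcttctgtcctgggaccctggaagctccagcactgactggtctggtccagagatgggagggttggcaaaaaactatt
CST6 upstream peak, ERG alone: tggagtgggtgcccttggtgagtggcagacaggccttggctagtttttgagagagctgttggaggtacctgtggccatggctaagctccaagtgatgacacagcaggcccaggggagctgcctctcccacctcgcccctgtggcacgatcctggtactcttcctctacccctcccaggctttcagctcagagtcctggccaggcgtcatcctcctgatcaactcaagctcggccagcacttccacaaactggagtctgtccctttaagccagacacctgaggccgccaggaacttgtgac
The S100A8 site (chr1:153357472-153357811, 5908 bases downstream of the start) had a 4.57-fold enrichment and 1 AP-1 match, TGATTCA. The SPRR1B site (chr1:152998287-152998574, 5249 bases upstream) had a 4.53-fold enrichment. The CST6 sites (chr11:65782957-65783388, 3693 bases downstream, and chr11:65775899-65776201, 3429 bases upstream) had enrichments of 4.76 and 3.83, and CST6, a cystatin, was at 74.3 FPKM with ERG and 7.27 with mAKT. None of the last 3 held any of the motifs searched.

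AP-1 letters were found more often upstream of genes higher with mAKT than of genes within 2-fold. TGANTCA, on either strand, was in the 250 bases upstream of the start of 10.8% of genes higher with mAKT (28 of 260, interval 7.56 to 15.1), 3.98% of genes higher with ERG (22 of 553, 2.64 to 5.95) and 3.25% of genes within 2-fold, against 3.45% of all 11914 promoters. Among protein-coding genes the shares were 11.8%, 4.26% and 3.13%, and the ERG class minus the mAKT class was −7.54 points (−13.1 to −2.84). Of the 23 protein-coding genes of the mAKT class with a match, 14 were below 1 FPKM in RWPE1-ERG. Among protein-coding genes at 1 FPKM or more in both lines the shares were 9.47% (9 of 95), 5.29% (11 of 208) and 3.10%, and the difference between the classes, −4.19 points (−12.1 to 1.72), included 0, while the mAKT class minus the rest was 6.37 points (1.95 to 13.9). The 23 included KRT14 and KRT16, 6 SPRR genes (SPRR1A, SPRR1B, SPRR2A, SPRR2D, SPRR2E and SPRR3), SERPINB7, SERPINB13, KRTDAP and SBSN. Several of these lie in gene clusters and have similar promoters, so they are not independent. The 14 of the ERG class included F3 (tissue factor), at 567 FPKM with ERG and 246 with mAKT. The ETS letters CCGGAAGT were in 1.54% of promoters of the mAKT class, 0.904% of the ERG class and 8.03% of the rest, against 7.55% of all, and the joined letters GGAAGTGA were in 2.31%, 1.45% and 4.24%, against 4.07% of all, so neither class carried them more often than other genes. TEAD letters were in 8.46%, 11.2% and 8.86%, against 8.96% of all, with overlapping intervals. Forkhead letters were in 1.54%, 1.45% and 1.76% (1.74% of all), and grainyhead letters in 1 promoter of the mAKT class, 0 of 553 of the ERG class and 0.143% of all. The letters of GGAAGTGA can overlap those of CCGGAAGT and TGANTCA in a promoter, and a match of letters is not a bound site. In 201 bases around peak centres, AP-1 letters were in 25.8% of the peaks of RWPE1-mAKT alone (25.0 to 26.6), 20.5% of those of RWPE1-ERG alone (19.9 to 21.1) and 20.0% of those in both.

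**Figure D5:**
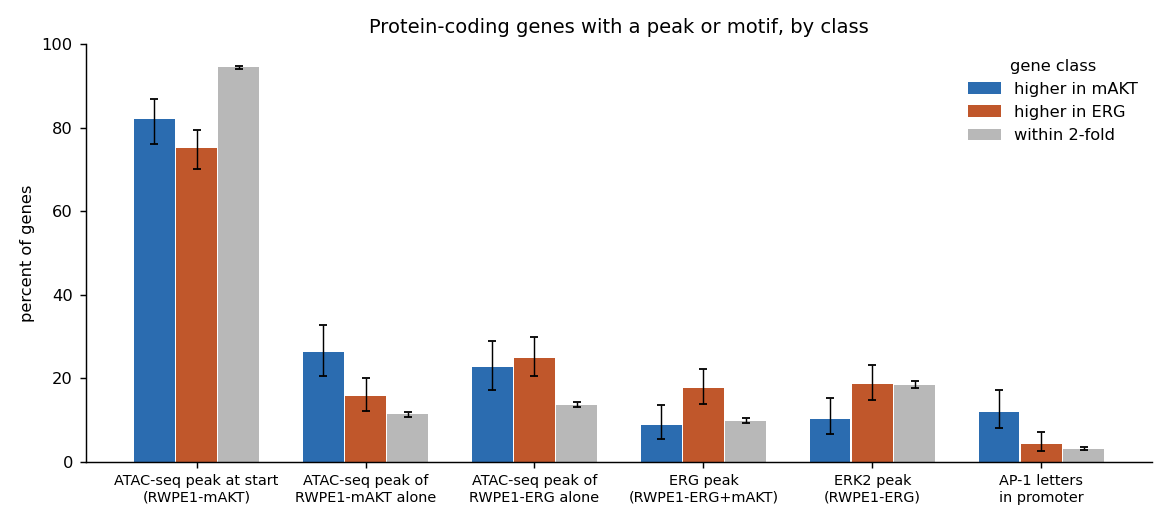
Share of protein-coding genes (percent) with an ATAC-seq peak within 1 kb of the start in RWPE1-mAKT, an ATAC-seq peak of a single line within 10 kb, an ERG or ERK2 peak within 10 kb, or AP-1 letters in the 250 bases upstream, for genes higher with mAKT (blue), higher with ERG (orange) and within 2-fold (grey), with 95% Wilson intervals. AP-1 letters stand at 11.8% for genes higher with mAKT against 4.26% and 3.13%, and ERG peaks at 17.6% for genes higher with ERG against 8.72% and 9.81%.

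ERG binding was measured by ChIP-seq in RWPE1-ERG+mAKT cells, and ERK2, a kinase of the Ras/ERK pathway, in RWPE1-ERG and RWPE1-Vector cells, with 1 library each. The RWPE1-ERG and RWPE1-Vector cells used for ChIP-seq were labelled with the pQCXIH construct alone. An ERG peak lay within 10 kb of the start of 15.0% of genes higher with ERG (12.3 to 18.2), 10.8% of genes higher with mAKT (7.56 to 15.1) and 9.89% of the rest (9.35 to 10.5). The ERG class minus the mAKT class was 4.24 points (−0.903 to 8.79). That interval also included 0 within 50 kb (−1.29 to 12.9) and for the 450 of 9113 ERG peaks that passed q = 0.01 (−1.68 to 2.33). Against the rest, the ERG class was higher by 5.12 points (2.32 to 8.38). This excess over the rest was 7.49 points within 50 kb (3.34 to 11.7) and 1.25 points at q = 0.01 (0.412 to 2.74). The mAKT class minus the rest was 0.878 points (−2.38 to 5.27). Protein-coding genes were set apart only once the values were known, and there the shares were 17.6%, 8.72% and 9.81%. Among them the ERG class exceeded the mAKT class by 8.91 points (2.83 to 14.4) and the rest by 7.82 points (4.03 to 12.3). CST6, TGM2, NNMT, IGFL1 and KRT8 on the ERG side had such a peak, as did KRT5, KRT13 and DDIT4 on the mAKT side, while VIM, FN1, CDH2, SPARC and IGFBP3 had none. An ERK2 peak of RWPE1-ERG cells lay near 30.0% of genes higher with ERG (26.3 to 34.0), 14.6% of those higher with mAKT (10.8 to 19.4) and 18.9% of the rest. Among protein-coding genes these were 18.5%, 10.3% and 18.5%, so the excess of the ERG class over the rest was not seen among protein-coding genes, and the mAKT class was below both. ERK2 peaks of RWPE1-Vector cells lay near 44.8%, 42.3% and 44.8%, but at a q-value of at most 0.01 near 5.06%, 1.15% and 1.21%, with the ERG class above the mAKT class by 3.91 points (1.24 to 6.20). In RWPE1-ERG that difference was 3.41 points (1.22 to 5.38). Among protein-coding genes the ERG class in RWPE1-Vector was at −10.9 points against the rest (−15.9 to −5.57). Of 5721 ERK2 peaks in RWPE1-ERG and 41276 in RWPE1-Vector, 178 and 306 had a q-value of at most 0.01, so most of them are weak.

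H3K27me3, the mark of polycomb repression, was compared in RWPE1-ERG and RWPE1-Vector cells, and the series has no such library of RWPE1-mAKT cells. A region covered the start of 5 of 260 genes higher with mAKT (1.92%) and 8 of 553 higher with ERG (1.45%) in RWPE1-ERG, against 0.180% of the rest, and of 11 (4.23%) and 15 (2.71%) in RWPE1-Vector, against 0.324% of the rest. No difference between the classes was detectable at this depth, with the ERG class minus the mAKT class at −0.476 points (−3.07 to 1.29) and −1.52 points (−4.88 to 1.01). Only 39 of 228233 regions in RWPE1-ERG had a q-value of at most 0.01, so these counts rest on weak regions.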

How the data were processed

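RNA-seq was analysed from the table the authors deposited, in which reads were aligned with TopHat2 to hg19 and quantified with Cuffdiff as FPKM, a level scaled to transcript length and mapped total. The table gives 26255 genes for each of 6 pairs of lines, with 1 FPKM value a line pooled over 3 libraries and 0 columns of single samples. It also holds the authors' own fold ratio, test statistic, p-value and q-value for each pair, which were not used. The depth of the RNA-seq libraries is not given in the sources used here. Peak lists were deposited by the authors as MACS2 output giving every peak a fold enrichment and its p-value and q-value as −log10, after Bowtie2 alignment to hg19 and removal of duplicates, with ChIP DNA pooled from independent experiments.

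Log2 ratios were computed from FPKM plus 0.1 for genes with at least 1 FPKM in either line, with no test, since a line has a single value and the authors' test columns were set aside. Gene starts came from GENCODE release 44 mapped to GRCh37, and a table symbol was matched where the gene overlapped the table's locus. Gene classes came from the same annotation. Gene names are those of the table. Overlap means at least 1 base, and intervals are 95% Wilson or Newcombe intervals. Motif letters were searched on both strands. Lists attached to a VCaP input and to a VCaP ERG ChIP carried names that did not match those labels. They were not used here, nor were the other VCaP list, the H3K27me3 list of the ERG S96E mutant or the ATAC-seq list of RWPE1-ERG+mAKT cells.

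The genes named are the markers, the transgenes, the 15 largest ratios in each direction where the higher line reached 10 FPKM and the other exceeded 0.5, and in each of 25 lists up to 6 members with the largest ratio and 3 with the highest level. Others that are named, among them the genes with AP-1 letters, histone genes, the SPRR1B promoter and list members at or below the limits, were chosen after their values were seen. The members and lists were chosen with earlier results of these data known. The code was tested on simulated data. Scripts ran under Python 3.11.15 with pandas 2.3.3, numpy 2.4.6 and matplotlib 3.10.9. Some items are not reported here.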

Additional observations from a re-analysis of the deposited data

How the results depend on the processing

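No paired analysis was possible because the table gives 1 pooled value a line, and for the same reason no library could be left out in turn. The 292 genes higher in RWPE1-mAKT became 186 with a pseudocount of 1 FPKM, 141 at 5 FPKM or more in either line, 112 at 1 FPKM or more in both, 479 without a filter on low values, 532 with both lines scaled to the same sum, 654 at 1.5-fold and 123 at 4-fold. The 616 genes higher in RWPE1-ERG became 1171 at 1.5-fold and 192 at 4-fold, and 333 for protein-coding genes alone and 374 without short RNA and histone genes, which like the other protein-coding alternatives were chosen after the data were seen. Scaling to the same sum left 416 genes higher in RWPE1-ERG, so the split between the directions depends on the scaling. Of 24 list medians, 4 moved by more than 1.5-fold in a setting. The suprabasal keratins went to 1.35 and the luminal genes to −0.98 at 5 FPKM or more in either line, and the cornified envelope genes to 0.98 with a pseudocount of 1 FPKM. At 1 FPKM or more in both lines, a setting added after the data were seen, the suprabasal keratins went to 1.35, the cornified envelope genes to 0.78 and the epidermal kallikreins to 0.73, since the members low in RWPE1-ERG are left out. No list median of 1 or more in size changed sign under the 5 alternatives, and no named gene past 2-fold did. The share of genes higher with mAKT for which RWPE1-ERG+mAKT lay nearer the mAKT level was 56.9% at 4-fold and 73.3% for protein-coding genes, and that of genes higher with ERG was 68.8% for protein-coding genes. For RWPE1-Vector the share of genes higher with mAKT turned from 56.5% to 35.8% at 4-fold and 47.3% with a pseudocount of 1 FPKM, and was 65.1% for protein-coding genes. Between genes higher with ERG and genes higher with mAKT, the difference in ERG peaks was 8.91 points for protein-coding genes, that in ERK2 peaks of RWPE1-ERG fell to 3.41 points at a q-value of at most 0.01 and 8.28 for protein-coding genes, and that in ERK2 peaks of RWPE1-Vector turned to −7.29 points for protein-coding genes, within an interval that included 0. Differences between the 2 classes in ATAC-seq peaks at starts and in H3K27me3 regions stayed within their main intervals, but the ATAC-seq gap between genes higher with ERG and the rest in RWPE1-mAKT, −29.0 points, shrank to −10.6 within 10 kb and −19.3 for protein-coding genes. The causes were not tested.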
